A study of Rattus norvegicus with 12 samples.

Results

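The miR-29 family is a small group of microRNAs (miRs) encoded as a pair of clusters, and 4 of its mature forms were followed here: rno-miR-29a-3p, rno-miR-29b-3p, rno-miR-29c-3p and rno-miR-29a-5p. They were selected by name from a table of 426 rat miRs counted in RNA from serum extracellular vesicles (EVs), and all 4 were rows of that table, of which 365 miRs had a count in the 10 libraries described below. A miR guides a silencing complex to messenger RNAs that pair with its seed, the bases near its 5′ end. The miR-29 3p arms are best known for repressing messages of the extracellular matrix, among them several collagens, elastin and fibrillin, and the family is widely studied in fibrosis and in tendon, where lower miR-29 is known to go with more type III collagen. Rapamycin inhibits the kinase mTOR, a regulator of growth, protein synthesis and autophagy.

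Every animal was a wild-type female Wistar rat of 12 weeks whose left Achilles tendon had been punctured with a needle, so vehicle and rapamycin groups were both injured and no uninjured serum was compared. Rapamycin was given intraperitoneally at 2 mg/kg each day, as 5 injections before sampling at day 7 or 19 before day 21. Vehicle animals received a matched volume of polyethylene glycol and Tween in water. Per the study's methods rapamycin was first dissolved in dimethyl sulfoxide, which the description of the vehicle does not name. Any part of that solvent in the treatment differences was not tested. Each of the 4 combinations of treatment and day had 3 libraries, labelled as biological replicates, and day 7 and day 21 were separate animals. The labels give tendon as the tissue, whereas the protocol describes vesicles isolated from serum by size exclusion chromatography, and the study states that serum volume did not allow full EV characterisation. EV in the text below therefore means the vesicle-enriched serum fraction.

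The sequences are given first because 3 of the members differ by so few bases. Each is the RefSeq mature form on the GRCr8 assembly, written 5′ to 3′ with the seed, bases 2 to 8, in capitals.
rno-miR-29a-3p: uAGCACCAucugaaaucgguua
rno-miR-29c-3p: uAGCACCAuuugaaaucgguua
rno-miR-29b-3p: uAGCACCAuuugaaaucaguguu
rno-miR-29a-5p: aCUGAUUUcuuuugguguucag

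The 3p arms shared the seed AGCACCA, which pairs with TGGTGCT in DNA letters, and among 693 RefSeq rat mature names these 3 alone carried it. miR-29a-5p, from the opposite arm of the miR-29a hairpin, had the seed CUGAUUU, carried by no other of those names. Counting positions from 1 at the 5′ end, with the base of the first-named miR first, miR-29a-3p and miR-29c-3p differed by a single substitution, C10U (21 of 22 bases identical, 95.5%). miR-29a-3p and miR-29b-3p differed by C10U, G18A, U21G and A22U, with 18 of 22 bases identical, and miR-29b-3p ran 1 base longer. miR-29b-3p and miR-29c-3p differed by A18G, G21U and U22A. The authors' mapping to miRBase allowed 1 mismatch, so a read from miR-29a-3p could also match miR-29c-3p and the reverse. The division of counts between this pair is uncertain to that extent. A read ending before position 18 could not tell miR-29b-3p from miR-29c-3p, so short reads would be ambiguous for miR-29b-3p as well.

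The 4 hairpins lay in 2 clusters on GRCr8, an assembly used here for naming only, since the reads had been mapped to mRatBN7.2. Mir29a and Mir29b1 were on the minus strand of chromosome 4, 291 bases apart and between the protein-coding genes Klf14 and Mkln1. There the mature miR-29a-3p occupied chr4:60617968-60617989, miR-29a-5p chr4:60618006-60618027 and miR-29b-3p chr4:60618342-60618364. Mir29b2 and Mir29c were on the plus strand of chromosome 13, 447 bases apart and inside the long non-coding RNA LOC102550527, between Cd34 and Cd46. The second copy of miR-29b-3p occupied chr13:109098882-109098904 and miR-29c-3p chr13:109099412-109099433. Because both miR-29b hairpins give the same 3p sequence, its counts cannot be assigned to either cluster.

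By miR counts relative to the spike-ins, 2 libraries stood apart before any result. The study carried 10 libraries into its miR analysis. Vehicle day 7 replicate 1 was left out, as was rapamycin day 7 replicate 2, and no reason was found in the sources used here. The 10 libraries held 16327 to 51391 miR counts, and the remaining pair 51431 and 95834. The pair also held 5.53 and 12.8 miR counts per count of the 7 spike-in calibrators, against 0.686 to 1.58 in the 10. By total depth alone only the left-out vehicle library was far from the rest. As a share of miR counts, the liver miR-122-5p was at 0.910% in the left-out rapamycin library and 1.17% in the left-out vehicle library, against 0 to 0.888% in the 10. The erythrocyte list was at 4.71% and 1.82% against 6.44% to 14.0%, and the leukocyte and platelet list at 0.850% and 0.557% against 1.43% to 3.75%. The muscle list was at 1.10% in the left-out vehicle library, which held 1026 counts of miR-133a-3p, and at 0.0933% in the rapamycin one, inside the 0 to 0.198% of the 10. Of its other members, miR-1-3p had 2 counts in each left-out library and 0 to 5 in the 10, and miR-133b-3p and miR-206-3p were at 0 in all 10. Results are given for the 10 libraries and then for all 12.

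The 3p arms were strongly unequal in abundance. Over all 12 libraries miR-29a-3p had 11094 counts, 81.1% of the counts of the 4 members, miR-29c-3p had 2435 (17.8%) and miR-29b-3p had 148 (1.08%). With each count scaled to a library total of 1000000 miR counts (CPM), miR-29a-3p ranked between 3rd and 22nd among the miRs of each library, so it was one of the main miRs of this serum fraction, miR-29c-3p ranked between 26th and 59th, and miR-29b-3p between 105th and 189th.

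rno-miR-29a-3p, the most abundant member, stood at 16440 and 27242 CPM in the day 7 rapamycin libraries carried forward, from 535 and 609 counts. In the day 7 vehicle libraries carried forward it stood at 12823 and 13894 CPM, from 544 and 714 counts. At day 21 it was at 12923, 24411 and 9571 CPM with rapamycin and at 9618, 12371 and 13463 CPM with vehicle. At day 7 both rapamycin libraries thus lay above both vehicle libraries, while at day 21 the groups overlapped and replicate 2 of the rapamycin group was the only library above the vehicle range. The left-out libraries were the highest of all, at 29924 CPM (1539 counts) for rapamycin and 53822 CPM (5158 counts) for vehicle, so that with all 12 libraries the day 7 groups overlapped.

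rno-miR-29c-3p, which shares the seed and differs at a single base, followed a like order. In the 10 libraries it was at 5163 and 4384 CPM with rapamycin at day 7 and at 3159 and 2432 CPM with vehicle. At day 21 it was at 3369, 3958 and 1679 CPM with rapamycin and at 1805, 1812 and 3236 CPM with vehicle. All rapamycin day 7 libraries exceeded all rapamycin day 21 libraries, in the set of 10 and with the left-out library included, whose value was 8322 CPM. The left-out vehicle library was again the highest, at 11541 CPM.

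rno-miR-29b-3p was near the limit of detection. It had 10 and 7 counts in the carried-forward rapamycin day 7 libraries, 3 and 12 with vehicle at day 7, and at day 21 it had 5, 6 and 2 counts in the rapamycin group and 5, 3 and 8 in the vehicle group. In the lowest library, replicate 2 of the vehicle day 7 group, 3 counts were 70.7 CPM with an exact (Clopper-Pearson) 95% interval of 14.6 to 207 CPM. In the highest of the 10, replicate 3 of the vehicle day 21 group, 8 counts were 320 CPM with an interval of 138 to 630 CPM, so even the extremes had overlapping intervals. At day 7 its rapamycin libraries carried forward, at 307 and 313 CPM, lay above the vehicle libraries at 70.7 and 234 CPM, on these few counts. These intervals cover counting error only. The left-out libraries had 20 and 67 counts (389 and 699 CPM).

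rno-miR-29a-5p, the opposite strand of the miR-29a duplex, was almost undetected. It had 2 counts in replicate 2 of the rapamycin day 21 group, 8 in the left-out vehicle day 7 library and 0 in the other 10. In the libraries of the analysed set a count of 0 allows up to 3 counts, which is 58.4 to 184 CPM depending on depth. The other 5p rows of the table were as sparse, with 2 counts in all for miR-29b-5p and 14 for miR-29c-5p, so the vesicle-enriched serum reads of this family came almost entirely from the 3p arms. No fold change was computed for any 5p arm.

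**Figure D1:**
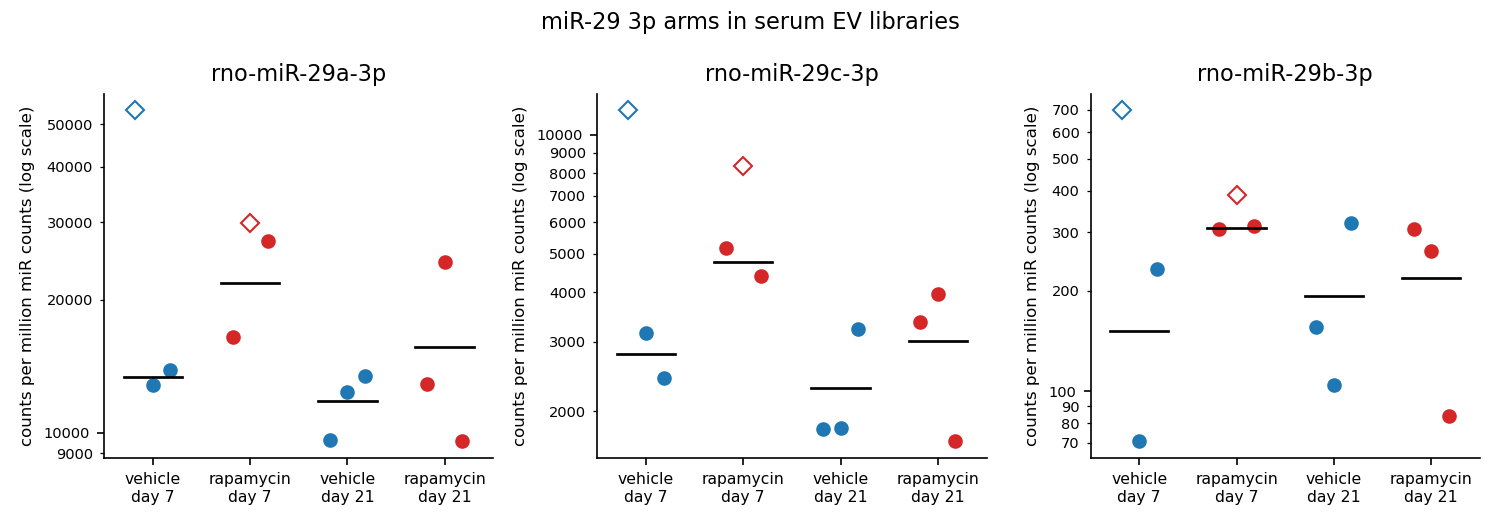
Levels of the miR-29 3p arms in every library, in CPM on a log axis that differs between panels, by treatment and day. Filled circles are the 10 libraries carried forward, open diamonds the 2 left out, and black lines the group means of the filled circles. The open diamonds were the highest values of miR-29a-3p (29924 and 53822 CPM), miR-29c-3p (8322 and 11541 CPM) and miR-29b-3p (389 and 699 CPM).

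As group means of the 10 libraries, miR-29a-3p fell in the order rapamycin day 7 at 21841 ± 7638 CPM (SD, n = 2), rapamycin day 21 at 15635 ± 7783 (n = 3), vehicle day 7 at 13358 ± 757 (n = 2) and vehicle day 21 at 11817 ± 1981 (n = 3). Each neighbouring pair in this order overlapped in its libraries. miR-29c-3p took the same order, from 4773 ± 551 CPM (n = 2) through 3002 ± 1183 (n = 3) and 2795 ± 514 (n = 2) to 2284 ± 824 (n = 3). Only at its first step, between the rapamycin groups of day 7 and day 21, did the libraries not overlap. miR-29b-3p ran from 84.0 to 313 CPM over the 5 rapamycin libraries and from 70.7 to 320 CPM over the 5 vehicle libraries.

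The first comparison asked whether rapamycin altered the circulating miRs at day 7. miR-29a-3p, miR-29c-3p and miR-29b-3p were all higher with rapamycin by point estimate, and none passed the test. The log2 fold change of miR-29a-3p was 0.56 (SE 0.37, 95% interval −0.17 to 1.29, edgeR quasi-likelihood adjusted p = 0.457). That of miR-29c-3p was 0.65 (SE 0.46, interval −0.26 to 1.56, edgeR adjusted p = 0.459). miR-29b-3p gave 0.81 (SE 0.89, interval −0.95 to 2.56) and lay below the abundance cutoff of this comparison, so it had no adjusted p. Among all miRs, 7 of 70 above the cutoff were called at an adjusted p under 0.05, or 10%, and 0 of the members were.

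The separation of the day 7 libraries of miR-29a-3p and miR-29c-3p was not unusual in this table. Of the 75 miRs whose lowest count over the 10 libraries was 10 or more, 45 (60%) likewise showed no overlap between 2 rapamycin and 2 vehicle libraries, 27 of them higher with rapamycin. With all 12 libraries the fold changes of miR-29a-3p and miR-29b-3p turned negative, at −0.15 (SE 0.47) and −0.17 (SE 0.69), and that of miR-29c-3p was 0.03 (SE 0.50), each with an edgeR adjusted p of 0.995 in a comparison that called 3 of 128 miRs (2.34%). Only 4 of 74 miRs (5.41%) then showed no overlap at day 7, and no member did. Lists of other miR sources separated the same day 7 libraries. miR-122-5p made up 0.300% and 0.302% of the miR counts of the carried-forward vehicle libraries and 0.819% and 0.888% of those of the rapamycin libraries. The leukocyte and platelet list ran the other way, at 2.97% and 3.75% in the vehicle libraries and 2.10% and 1.81% in the rapamycin libraries. The erythrocyte list was at 6.70% and 8.23% in the vehicle libraries and 9.48% and 8.31% in the rapamycin libraries. The muscle list, on 6 to 41 counts, was at 0.0141% and 0.0214% with vehicle and 0.126% and 0.0313% with rapamycin. Their part in the day 7 values of the family was not tested.

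At day 21 the same question gave smaller values. The log2 fold changes were 0.36 (SE 0.31, interval −0.25 to 0.97, edgeR adjusted p = 0.785) for miR-29a-3p and 0.37 (SE 0.43, interval −0.47 to 1.21, edgeR adjusted p = 0.838) for miR-29c-3p. miR-29b-3p was at 0.13 (SE 0.91) and below the abundance cutoff. One library decided the miR-29a-3p estimate: without replicate 2 of the rapamycin group it was −0.09. That library also had the highest muscle list share of the 10, at 0.198%, and 0.422% miR-122-5p against at most 0.0367% in the other two of its group. Replicate 3 of the vehicle day 21 group held more miR-122-5p, at 0.511%, with miR-29a-3p at 13463 CPM. The part of these sources in the value was not tested. Among all miRs there was 1 call of 92 (1.09%). miR-29a-3p and miR-29c-3p overlapped between the groups, whereas 11 of 75 miRs (14.7%; 14.9% with all 12 libraries) showed no overlap. With all 12 libraries the values were 0.24 for miR-29a-3p, −0.01 for miR-29b-3p and 0.25 for miR-29c-3p (edgeR adjusted p = 1 for each). There 0 of 426 miRs were called by edgeR, 11 had an unadjusted p under 0.05, and DESeq2, run on the 10 libraries, called 0.

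Both days were then compared together, with day as a blocking factor, which gave the narrowest intervals. miR-29a-3p was higher with rapamycin by 0.44 on the log2 scale (SE 0.23, interval −0.01 to 0.90), with an unadjusted p of 0.0534 and an edgeR adjusted p of 0.305. miR-29c-3p was at 0.50 (SE 0.31, interval −0.11 to 1.11, edgeR adjusted p = 0.424) and miR-29b-3p at 0.47 (SE 0.63, interval −0.77 to 1.71, edgeR adjusted p = 0.792). No member passed the test, and 7 of 186 miRs (3.76%) did. The interval of miR-29a-3p thus ran from about no difference to 0.90 higher. With all 12 libraries the values were 0.04 (SE 0.32) for miR-29a-3p, 0.13 (SE 0.36) for miR-29c-3p and −0.12 (SE 0.56) for miR-29b-3p, in a comparison that called 2 of 26 miRs (7.69%).

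Expressed as plain CPM over the 5 libraries of each treatment, miR-29a-3p was at 18118 ± 7512 with rapamycin and 12434 ± 1679 with vehicle (SD), and miR-29c-3p at 3711 ± 1310 and 2489 ± 696. Among these, the rapamycin libraries were spread more widely than the vehicle libraries for both. For each member the lowest rapamycin library lay below every vehicle library. With all 12 libraries the order of the spread was reversed. The SD was then 8269 CPM with rapamycin and 16963 with vehicle for miR-29a-3p, and 2218 and 3747 for miR-29c-3p.

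**Figure D2:**
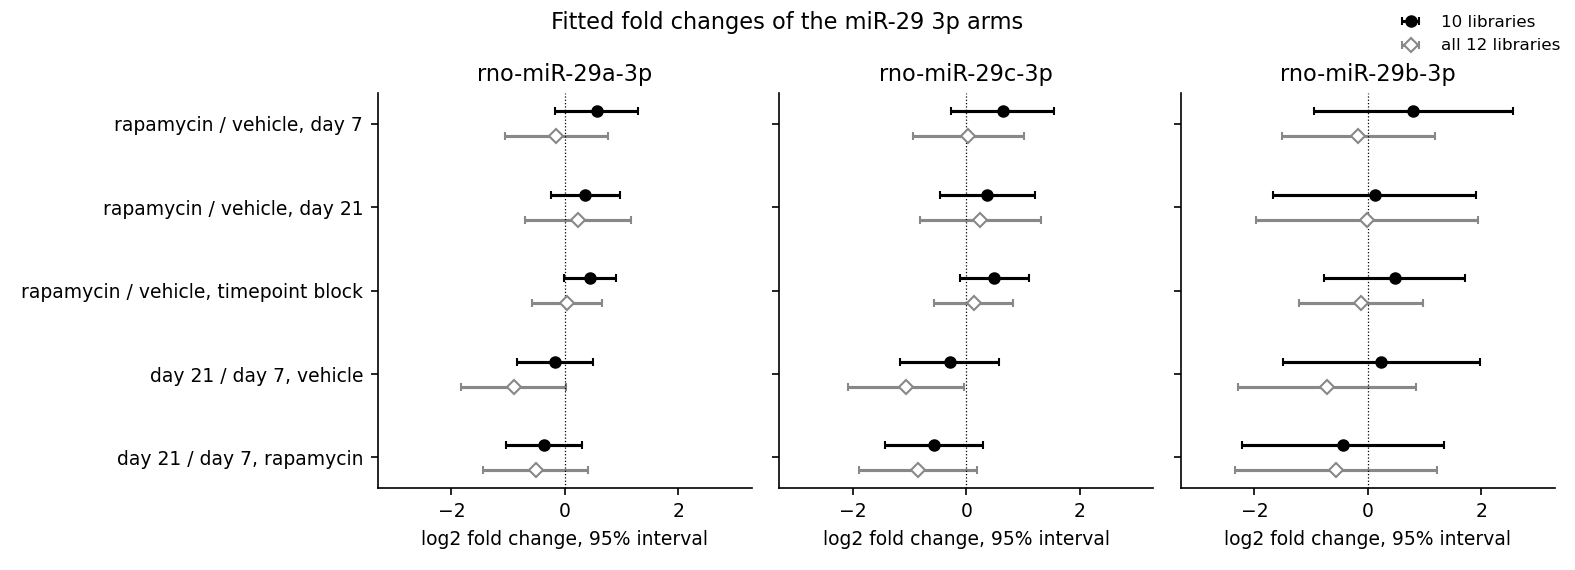
Fitted log2 fold changes of the miR-29 3p arms with 95% intervals from the edgeR quasi-likelihood fit, for 5 comparisons, with the 10 libraries carried forward (black circles) and all 12 (grey diamonds). Each black interval includes 0, and the estimates of miR-29a-3p for rapamycin at day 7 lie on opposite sides of 0, at 0.56 and −0.15.

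Change over time was compared within each treatment, in different animals at each day. With vehicle, miR-29a-3p differed by −0.17 between day 21 and day 7 (SE 0.34), miR-29c-3p by −0.29 (SE 0.44) and miR-29b-3p by 0.24 (SE 0.89), each with an edgeR adjusted p of 1, and 1 of 365 miRs was called (0.274%). No member was without overlap between the vehicle days, against 17.3% of 75 miRs with the 10 libraries and 9.46% of 74 with all 12. With rapamycin the 3 members were lower at day 21 by point estimate: −0.37 for miR-29a-3p (SE 0.34, edgeR adjusted p = 0.688), −0.57 for miR-29c-3p (SE 0.44, edgeR adjusted p = 0.643) and −0.44 for miR-29b-3p (SE 0.91, below the abundance cutoff). miR-122-5p was lower in the same libraries, at 0, 0.0367% and 0.422% of miR counts at day 21 against 0.819% and 0.888% at day 7. The erythrocyte list was at 14.0%, 9.21% and 13.5% in replicates 1, 2 and 3 at day 21 against 9.48% and 8.31% at day 7. In the same order the leukocyte and platelet list was at 3.12%, 1.43% and 2.83% against 2.10% and 1.81%. The muscle list was at 0, 0.198% and 0.0042% against 0.126% and 0.0313%. The part of these sources in the fold changes was not tested. In that comparison 5 of 117 miRs (4.27%) were called, all lower at day 21. The non-overlap of miR-29c-3p between the rapamycin days was shared by 15 of 75 miRs (20%), and by 17.6% of 74 with all 12 libraries.

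A single library again carried weight. Without replicate 2 of the rapamycin day 21 group, miR-29a-3p fell by 0.86 on the log2 scale from day 7 to day 21 with rapamycin and passed the test (edgeR adjusted p = 0.0461), while 26 miRs in all were called. It was 1 of 378 combinations of member, comparison and setting, and the only one in which a member was called. Across all settings of this comparison the adjusted p of miR-29a-3p ran from 0.0461 to 1.

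Including the left-out libraries, which are both from day 7, made the estimates over time more negative. With vehicle the 12-library values were −0.90 for miR-29a-3p (SE 0.47, unadjusted p = 0.0573, edgeR adjusted p = 0.355), −1.06 for miR-29c-3p (SE 0.52, interval −2.09 to −0.04, unadjusted p = 0.042, edgeR adjusted p = 0.31) and −0.72 for miR-29b-3p (SE 0.80, edgeR adjusted p = 0.753), with 5 miRs called (2.6% of those tested). With rapamycin they were −0.52, −0.85 and −0.55 for miR-29a-3p, miR-29c-3p and miR-29b-3p (edgeR adjusted p = 0.669, 0.458 and 0.833), with 9 of 171 miRs called (5.26%). No member passed in either.

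Whether the treatment difference itself changed between days was tested as an interaction. It was −0.20 (SE 0.48) for miR-29a-3p, −0.28 (SE 0.63) for miR-29c-3p and −0.68 (SE 1.28) for miR-29b-3p with the 10 libraries, and 0.38, 0.21 and 0.16 with all 12. Every edgeR adjusted p was 1, with 1 of 365 (0.274%) and 1 of 260 (0.385%) miRs called. A difference in effect between the days was not detectable in this number of animals.

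The 3p arms summed as a family gave a measure less affected by how reads were divided among them. At day 7 it was 2.19% and 3.19% of miR counts in the rapamycin libraries against 1.61% and 1.66% in the vehicle libraries. At day 21 it was 1.66%, 2.86% and 1.13% with rapamycin and 1.16%, 1.43% and 1.70% with vehicle. The left-out libraries reached 3.86% and 6.61%. The rapamycin day 7 libraries were thus the higher at day 7 among the 10, and the left-out vehicle library exceeded them. By share, 45 of 75 miRs (60%) also showed no overlap between these day 7 libraries of the 10, 27 of them higher with rapamycin.

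A share depends on the other miRs in the library, so the same sum was also set against the 7 calibrator spike-ins, which were added in a fixed amount. Per 1000 calibrator counts, the day 7 rapamycin libraries had 32.9 and 32.7 and the day 7 vehicle libraries 25.4 and 26.2. At day 21 the rapamycin group had 11.4, 31.5 and 11.0 and the vehicle group 17.5, 17.9 and 16.3. At day 7 the rapamycin libraries lay above the vehicle libraries without overlap, as 9 of the 75 miRs did on this scale, while 22 lay below (41.3% without overlap in either direction). The vehicle day 21 libraries lay below the vehicle day 7 libraries, as did 23 of 75 miRs (30.7%) and the whole miR total, at 0.955 to 1.51 against 1.58 miR counts per calibrator count, so this was not particular to the family. At day 21 replicates 1 and 3 of the rapamycin group lay below every vehicle library while replicate 2 lay above them.

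The spike-in scale moved all miRs and not the family alone. Over the same 75 miRs, the median log2 difference between day 21 and day 7 with vehicle was −0.01 by the main scaling and −0.37 with calibrators as library size, and with rapamycin it was 0.10 and −0.52. With calibrators miR-29a-3p gave −0.57 for vehicle and −0.82 for rapamycin over time, and miR-29c-3p −0.70 and −1.17, with edgeR adjusted p-values of 0.95, 0.473, 0.95 and 0.287. For rapamycin against vehicle the calibrator scale shrank miR-29a-3p to 0.32 at day 7 and 0.06 at day 21, where the median of the 75 miRs was −0.16 and −0.35. miR-29a-3p lay above that median on both scales. A change of library size moves all miRs of a comparison nearly alike, so this agreement adds no separate support. Per the study's methods the spike-ins were added to the extracted RNA, so recovery during isolation and extraction also enters this scale. Such recovery, fewer vesicles, less miR per vesicle and miR outside vesicles cannot be told apart in these serum fractions.

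The left-out libraries stood further apart on the spike-in scale than by share. The family sum per 1000 calibrator counts was 213.8 in the rapamycin library and 842.6 in the vehicle library. Against the median of the 10, miR-29a-3p was 9.25 and 38.4 times as high per calibrator and 2.27 and 4.08 times as high by CPM. For miR-29c-3p these were 13.3 and 42.4 times per calibrator and 2.60 and 3.61 times by CPM.

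**Figure D3:**
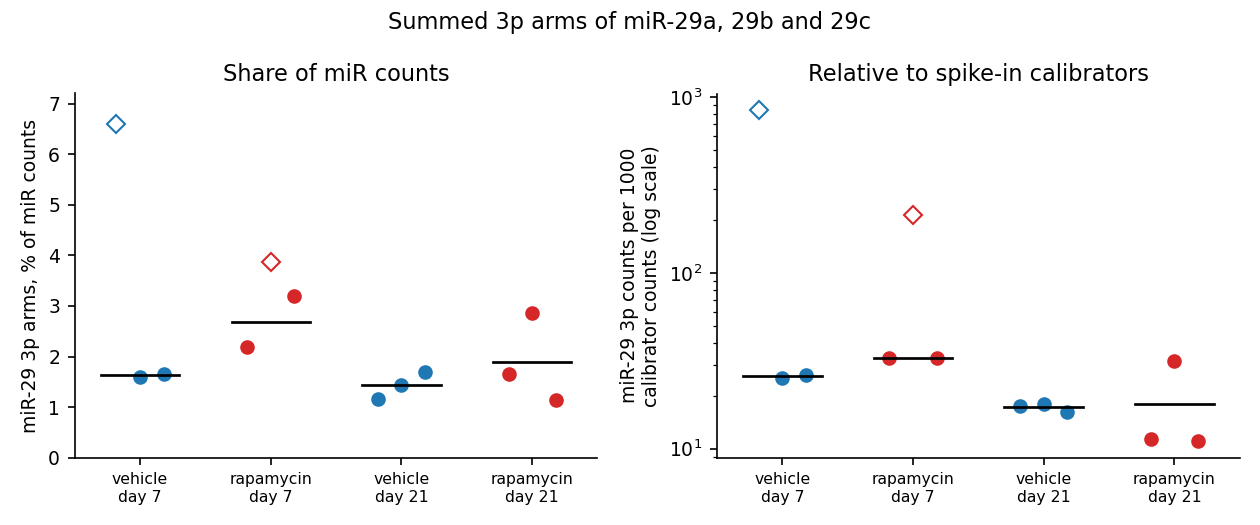
The summed 3p arms of miR-29a, miR-29b and miR-29c in every library, as a percentage of miR counts (left, linear axis from 0) and per 1000 spike-in calibrator counts (right, log axis). Filled circles are the 10 libraries carried forward, open diamonds the 2 left out, and black lines the means of the filled circles. The 2 left-out libraries lie at 3.86% and 6.61% on the left and at 213.8 and 842.6 on the right.

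Over the 10 libraries together the balance between the members varied less, relative to its mean, than their level. The summed 3p arms were at 1.86 ± 0.69% of miR counts (SD, n = 10). With vehicle alone, at 1.51 ± 0.22% (SD, n = 5), the level varied less than the balance given below. miR-29a-3p had 3.18 to 6.83 counts for each miR-29c-3p count over the 10 libraries, with a mean of 5.12 ± 1.22 (SD, n = 10). With rapamycin the ratio was 5.02 ± 1.41 (n = 5) and with vehicle 5.22 ± 1.15 (n = 5). The left-out libraries, at 3.60 and 4.66, lay inside the range of the others even though both members were several times as high there. The ratio did not separate treatments or days, and the uncertain division of reads between this near-identical pair bears on it directly.

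**Figure D4:**
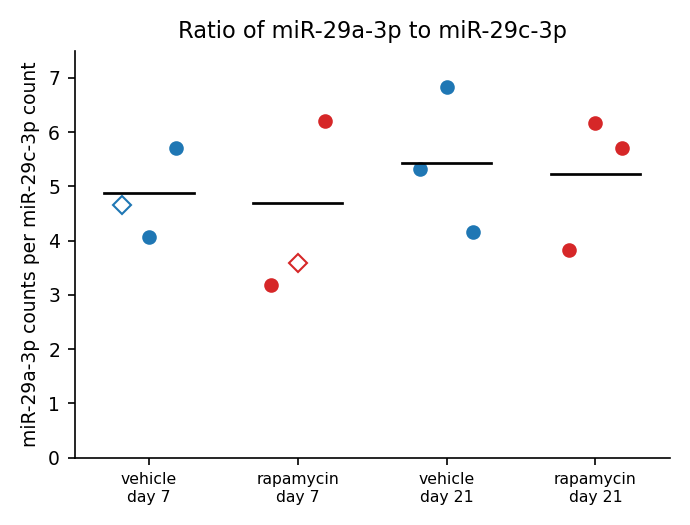
Counts of miR-29a-3p for each count of miR-29c-3p in every library, on a linear axis from 0. Filled circles are the 10 libraries carried forward, open diamonds the 2 left out and black lines the means of the filled circles. All groups overlap, between 3.18 and 6.83.

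Among themselves the members went up and down together to differing degrees. Across the 10 libraries Pearson's r of log2 CPM was 0.675 between miR-29a-3p and miR-29c-3p, 0.619 between miR-29b-3p and miR-29c-3p and 0.48 between miR-29a-3p and miR-29b-3p, rising to 0.864, 0.76 and 0.709 over all 12. These are descriptions without a test, since the libraries share depth and composition and the counts of miR-29b-3p were low. The spread of the members over the 10 libraries was ordinary for this table, with a standard deviation of log2 CPM of 0.417 for miR-29a-3p and 0.466 for miR-29c-3p against a median of 0.423 over 75 miRs.

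The miRs most like miR-29a-3p were not its own relatives. They were picked as the highest of 74 candidates, so their r cannot be weighed against that of a relative fixed beforehand. miR-29b-3p, with fewer than 10 counts in some libraries, was not a candidate. The 3 of 74 candidates most like miR-29a-3p over the 10 libraries were miR-30d-5p (r = 0.931), miR-30a-5p (r = 0.866) and miR-30e-5p (r = 0.825). All are of the miR-30 family and none carries the miR-29 seed. The 3 most like miR-29c-3p were miR-27b-3p (r = 0.932), miR-99a-5p (r = 0.881) and miR-23b-3p (r = 0.862), of which miR-27b and miR-23b are made from one cluster. Over all 12 libraries these values were between 0.865 and 0.960. Log2 CPM of miR-30d-5p ran from 11.14 in replicate 3 of the rapamycin day 21 group to 13.65 in its replicate 2 among the 10, and these were also the lowest and the second highest libraries of miR-29a-3p.

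**Figure D5:**
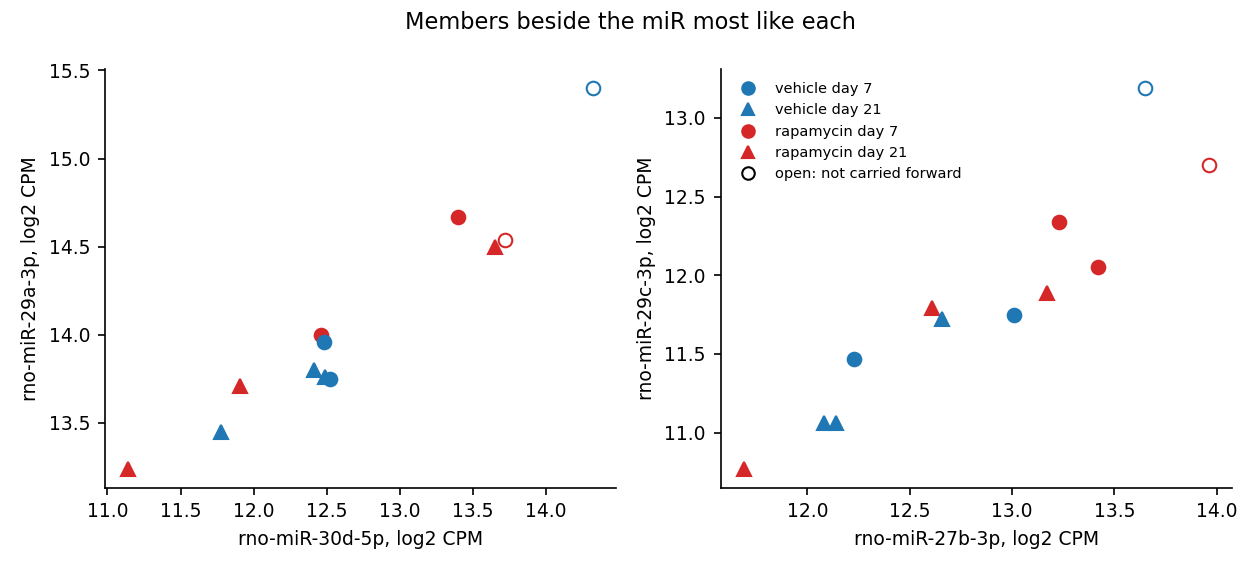
Each abundant member against the miR most like it, in log2 CPM after scaling over all 12 libraries, with 1 point a library coloured by treatment (blue vehicle, red rapamycin), circles for day 7 and triangles for day 21. Open symbols are the 2 left-out libraries. miR-29a-3p rises with miR-30d-5p (r = 0.931 over the 10, 0.960 over the 12) and miR-29c-3p with miR-27b-3p (r = 0.932 and 0.930).

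Beside the family, a list of 17 miRs outside it that are known for matrix or fibrosis roles was followed, all of them in the table. At day 7, 0 of its 8 members above the cutoff were called, beside 10% of all miRs tested. The median log2 fold change over all 17, above the cutoff or not, was 0.70. It was 0.00 over the 365 miRs with a count and 0.03 over the 70 above the cutoff. With all 12 libraries the list median was −0.29 against −0.15 over all miRs with a count. There 1 of 13 was called (2.34% of all), the muscle miR-133a-3p. That miR was lower with rapamycin and had 1026 counts in the left-out vehicle library. At day 21, 0 of 10 were called with a median of −0.02, and 0 of 17 with a median of −0.16 with all 12 libraries.

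With day as a block, 2 of 16 were called, beside 3.76% of all miRs tested. miR-133a-3p, known from striated muscle, was higher with rapamycin, the opposite of its day 7 call with all 12 libraries. Its counts in the 10 libraries were low, from 0 to 45. The muscle list that holds it had 41 and 7 counts in the rapamycin libraries of day 7 and 0, 45 and 1 at day 21. With vehicle it had 6 and 11 at day 7 and 2, 1 and 13 at day 21. Only replicate 1 of rapamycin day 7 and replicate 2 of rapamycin day 21 thus lay above every vehicle library. miR-34a-5p, a p53 target, was lower with rapamycin. In the block comparison with all 12 libraries 0 of 5 were called, beside 7.69% of all. Over time with rapamycin miR-192-5p, a liver and kidney miR, was called lower at day 21, as 1 of 13 in the 10 libraries (4.27% of all) and 1 of 16 in all 12 (5.26%). Over time with vehicle 0 of 17 were called with the 10 libraries (0.274% of all), and 2 of 17 with all 12 (2.6%), miR-199a-5p and miR-133a-3p, both lower at day 21. For the interaction 0 of 17 were called with the 10 libraries, and with all 12 miR-133a-3p was called higher (0.385% of all).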

How the data were processed

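Small RNA from serum EVs of 12 libraries was sequenced by the authors. Per the labels and the study's methods, reads were trimmed with cutadapt 3.3, mapped with Bowtie 1.3.0 and miRDeep2 to mRatBN7.2 and then to rat miRBase entries with up to 1 mismatch, and the deposited values are raw counts per miR and per spike-in. The labels and the study's methods differ on the sequencer. From these counts, CPM was computed over miR counts, without spike-ins. Groups came from the labels. edgeR 4.0.16 (R 4.3.3) was run with TMM scaling and the quasi-likelihood test on the whole table, with 1 dispersion trend for all groups. An abundance cutoff was placed at the quantile of mean log2 CPM (0 to 0.95, in steps of 0.01) that gave most calls, and Benjamini-Hochberg adjustment followed, with a threshold of 0.05. Adjusted p-values therefore refer to miRs above the cutoff. SE and 95% intervals came from the F statistic. On simulated counts the fits were required to recover the sign and size of known fold changes. That check set no condition on false calls or on power.

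The 10 libraries carried forward by the study were the main set. The edgeR p-values judge each difference against a spread between animals that was estimated over all groups and drew on all miRs. Each day 7 group of this set had 2 libraries. Alternatives were all 12 libraries, no cutoff, edgeR's own low-count filter, RLE scaling, DESeq2 1.42.0, calibrators as library size, the older quasi-likelihood form, a replicate block, each day alone, and each library left out. All 12 libraries without either left-out library were added after the data were seen. Exact binomial intervals and the limit of 3 counts cover counting error only. The members, the miR lists and the tests were chosen with earlier results of these data known. Named miRs were the members, the other arms of their hairpins by counts, the 3 miRs most like each member whose lowest count over the 10 libraries was 10 or more (log2 CPM, prior count 2), and called members of the matrix and fibrosis list. Names of those called members, and of marker miRs, were given after their values were seen. Sequences came from RefSeq (GRCr8), where 385 of 426 table names matched.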

Additional observations from a re-analysis of the deposited data

Results flagged for a closer look

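Libraries far from the rest of their treatment were sought in 24 groups of member or family values with 4 to 10 libraries, and 6 were found. The rule used Dixon's 95% critical value, which chance alone passes in about 5% of groups by its definition. The 6 are not independent, since 5 of them come from the left-out libraries.

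With all 12 libraries, vehicle day 7 replicate 1 stood far above the other 5 vehicle libraries in miR-29a-3p (53822 CPM, a gap of 0.903 of the range), in miR-29c-3p (11541 CPM, 0.853) and in the summed 3p arms, both as a share of miR counts (6.61%, 0.900) and per 1000 calibrator counts (842.6, 0.988). Rapamycin day 7 replicate 2 stood above the other 5 rapamycin libraries in the summed 3p arms per 1000 calibrator counts (213.8, 0.892). Neither library belongs to the 10 that the study carried forward. Among the 10, miR-29b-3p was lowest in rapamycin day 21 replicate 3, at 84.0 CPM from 2 counts, a gap of 0.785 of the range of the 5 rapamycin libraries.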

How the results depend on the processing

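Over the 6 comparisons, in the order treatment at day 7, treatment at day 21, treatment with day as a block, time with vehicle, time with rapamycin and interaction, the whole table gave 7, 1, 7, 1, 5 and 1 calls in the main setting. All 12 libraries gave 3, 0, 2, 5, 9 and 1 calls, no abundance cutoff 2, 0, 3, 1, 2 and 1, RLE scaling 3, 0, 8, 1, 4 and 1, calibrators as library size 2, 1, 5, 1, 9 and 0, and the older quasi-likelihood form 3, 1, 5, 1, 4 and 1. DESeq2 and edgeR's own low-count filter gave 0 calls in all 6. The libraries of the day alone gave 12 at day 7 and 0 at day 21. Leaving out each of the 10 libraries gave 0 to 10, 0 to 7, 3 to 18, 0 to 2, 1 to 26 and 0 to 10 calls. All 12 libraries without rapamycin day 7 replicate 2, a setting chosen after seeing the data, gave 1, 0, 1, 16, 2 and 1 calls, and without vehicle day 7 replicate 1, likewise added, 16, 0, 10, 1, 15 and 2. Members called ranged from 0 to 1, and the 1 call was miR-29a-3p over time with rapamycin, without rapamycin day 21 replicate 2.

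Of 378 member fold changes, 30 changed sign, and the cause was not tested. With all 12 libraries these were miR-29a-3p at -0.15 and miR-29b-3p at -0.17 (day 7), miR-29b-3p at -0.0065 (day 21), -0.12 (block) and -0.72 (time with vehicle), and the interactions of miR-29a-3p, miR-29b-3p and miR-29c-3p at 0.38, 0.16 and 0.21. All 12 without rapamycin day 7 replicate 2 gave -0.41, -0.37 and -0.35 for miR-29a-3p, miR-29b-3p and miR-29c-3p at day 7, miR-29b-3p at -0.19 (block) and -0.88 (time with vehicle), and interactions of 0.74, 0.48 and 0.70. All 12 without vehicle day 7 replicate 1 kept the signs of the 10 libraries, with 0.65, 0.88 and 0.90 at day 7. Calibrators turned miR-29b-3p to -0.26 at day 21 and -0.15 over time with vehicle. Leaving out single libraries gave miR-29a-3p -0.093 to 0.47 and miR-29b-3p -0.18 to 0.47 at day 21, miR-29b-3p -0.30 to 1.37 over time with vehicle, and the interaction of miR-29a-3p -0.69 to 0.037.

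Deviations of same-numbered libraries correlated at a mean r of -0.267 (-0.478 to -0.0201, 10 libraries) and -0.325 (-0.782 to 0.311, 12). These few pairs cannot decide whether libraries of the same replicate number shared a batch. With the replicate block the calls were 1, 0, 2, 1, 0 and 0 in the same order, and with all 12 libraries 0, 0, 0, 1, 9 and 0. Under the block with 12 libraries miR-29a-3p was at -0.091 at day 7, miR-29b-3p at -0.56 over time with vehicle, and the interactions of miR-29a-3p and miR-29c-3p at 0.29 and 0.019. Depth limited miR-29b-3p and the 5p arms most.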
